A study of Homo sapiens with 8 samples.

Results

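PHGDH, PSAT1, PSPH, SHMT2, MTHFD2, ASNS, ATF4, CHAC1, TRIB3 and SLC7A11, genes of serine synthesis and of the response to amino acid shortage, are 10 of the 56638 gene symbols listed in both count tables of the study. They were chosen by name with their measured changes in both knockdowns already known. Their levels and changes are therefore given as a description, without a test.

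The study profiled RNA in SCC25, an established line of head and neck squamous cell carcinoma, to compare brief with lasting loss of ETS1, a transcription factor. Short-term loss came from transient lipid transfection of a pool of siRNAs (group ETS1 siRNA), against a pool without a target (group siRNA control). Long-term loss came from a lentiviral hairpin in puromycin-selected cells (group shETS1), against a non-silencing hairpin (group shCON). All 4 groups of 2 libraries were grown in the same serum and hydrocortisone medium and carried no other stated alteration. The labels name 1 ETS1 hairpin, so that hairpin and ETS1 loss cannot be told apart in shETS1, and the interval between treatment and harvest is not given in the sources used here. The siRNA replicates are described as biological. For the shRNA libraries nothing says that the cultures were separate, so that their p-values measure the spread between these libraries, which may be technical.

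Cells make serine from an intermediate of glycolysis through PHGDH, PSAT1 and PSPH, and SHMT2 and MTHFD2 pass its carbon to folate inside mitochondria. ATF4 is a transcription factor whose translation increases when amino acid shortage or protein misfolding leads to phosphorylation of the initiation factor eIF2alpha, and the other 9 genes are widely described as its targets. Many carcinoma cells are known to draw on serine synthesis and on cystine uptake for growth and for glutathione.

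ATF4 is known to bind composite sites shared with C/EBP factors, and ETS factors bind a short purine-rich core, so the stretches that hold such letters are shown. RefSeq windows (GRCh38.p14) from 250 bases before to 50 bases after a start site were given for 7 of the 10 genes, and PSPH, SHMT2 and SLC7A11 had none. The motifs, searched on both strands, were TGATGNAA for the ATF4-C/EBP core, CCGGAA for the ETS core and TGACNNNGC for the antioxidant element, and matches of different motifs did not overlap. Each stretch below has 30 bases, reads 5′ to 3′ on the strand of its gene, and has the matched letters in capitals. Positions are in GRCh37, where each stretch was found again by exact match at its gene.
ASNS, ATF4-C/EBP core: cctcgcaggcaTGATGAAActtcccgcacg
CHAC1, ATF4-C/EBP core on the other strand: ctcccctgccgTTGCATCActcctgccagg
ASNS, ETS core: cctggggctgctCCGGAAggaaggggtgga
TRIB3, ETS core: gggaagggggcgCCGGAAgcctctgggcgt

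The first ASNS stretch lies at chr7:97501770-97501799, minus strand, with the match at -68 to -61 from the RefSeq start, in an untranslated exon of 3 of the 17 GENCODE transcripts of ASNS. The CHAC1 stretch lies at chr15:41245449-41245478, plus strand, with the match at -209 to -202, in an untranslated exon of 1 of 3 transcripts. The second ASNS stretch lies at chr7:97501575-97501604, minus strand, at -115 to -110 from a second start and in an intron of 7 transcripts. The TRIB3 stretch lies at chr20:361876-361905, plus strand, at -51 to -46 from the first of 3 starts, in an untranslated exon of 1 of 4 transcripts. The ATF4-C/EBP core was found in 2 of the 7 genes with a window and in 4.46% of all 27305 genes with one. The ETS core was found in 2 of 7 genes and in 20.1% of all genes. The antioxidant element, in MTHFD2 and TRIB3, was found in 2 of 7 and in 16.1%. A match describes letters and is not a measured binding site.

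Total counts per library ranged from 15954616 to 25953213, and the dispersion was 0.0192 in the siRNA table and 0.00402 in the shRNA table, so that values after siRNA carry larger errors. Levels are given as CPM, counts scaled to a common library size with TMM factors. The scaling was done in each table on its own, and levels are therefore not compared across the tables. All 10 squamous markers were present in every library, with a summed level from 18100 to 33300 CPM that was higher in both knockdowns than in their controls, whereas markers of leukocytes, endothelium, melanocytes and skeletal muscle summed to at most 3.37 CPM each. In bulk libraries, fewer cells of a state and less RNA per cell cannot be told apart. The 5 structural RNAs counted took 5.61% and 6.63% of the counts in shCON and 12.3% and 9.64% in shETS1, and at most 0.00339% in the siRNA libraries. Mitochondrial genes took 0.82% and 0.768% of the counts in shCON, 0.508% and 0.714% in shETS1, and 0.0% in every siRNA library. The authors describe the same preparation for all libraries, yet these shares differ between the tables. Duration of ETS1 loss and other differences between the tables therefore cannot be told apart. The part of the structural and mitochondrial RNAs in the results was not tested.

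ETS1, the targeted gene (chr11:128328656-128457453, minus strand), stood at 288 and 248 CPM in siRNA control replicates 1 and 2 and at 17.4 and 13.2 CPM in ETS1 siRNA replicates 1 and 2, which amounted to -4.13 on the log2 scale (SE 0.19, edgeR adjusted p = 0.000173). It stood at 82.3 and 72.1 CPM in shCON and at 9.76 and 11.1 CPM in shETS1, a log2 fold change of -2.89 (SE 0.10, edgeR adjusted p = 3.82e-13). The targeted transcript was therefore lower in both libraries of each knockdown than in either library of its control.

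After long-term loss, the 10 genes were lower in both shETS1 libraries than in both shCON libraries, and after short-term loss SLC7A11 alone was past the threshold. In shETS1 the levels of PSAT1, PHGDH, ASNS, CHAC1 and TRIB3 were 4.71 to 8.71 times below control, those of SLC7A11 2.98 times, those of PSPH, SHMT2 and MTHFD2 1.58 to 1.65 times and that of ATF4 1.14 times. The threshold was an adjusted p under 0.1 in the edgeR fit of all genes. In the shRNA table it was passed by 10 of the 10 genes, all lower, and by 60.6% of the 16481 genes tested, 29.7% higher and 30.9% lower. Groups without overlap were found for 38.6% of all genes in the lower direction and 38.1% in the higher. In the siRNA table the threshold was passed by 1 of the 10 genes, lower, and by 3.41% of the 14742 genes tested, 1.13% higher and 2.27% lower. There the groups did not overlap for 6 of the 10 genes in the lower and 2 in the higher direction, against 26.2% and 25.7% of all genes. The choice of genes used these contrasts, so nothing is read from the counts. The median log2 fold change of the 10 genes was -1.91 after shRNA and -0.21 after siRNA, beside 0.00066 and 0.0018 over all genes tested.

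**Figure D1:**
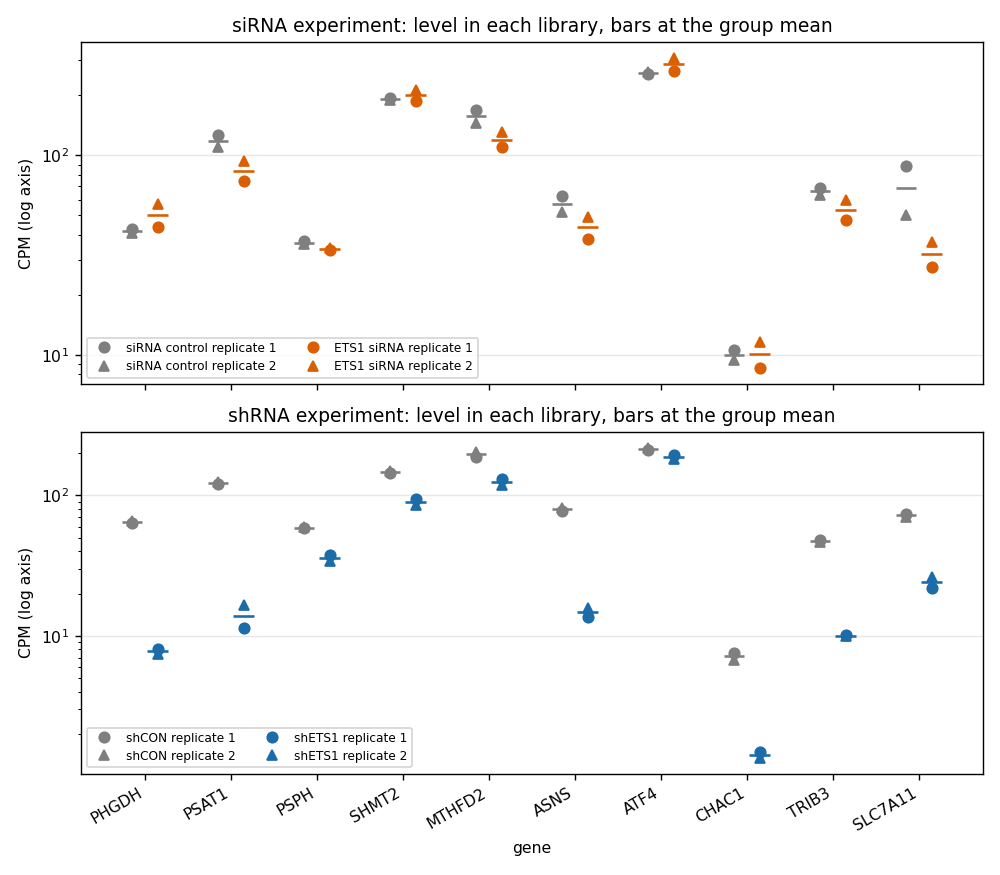
Level of each gene in each library, in CPM on a log axis, with siRNA libraries in the upper and shRNA libraries in the lower panel, points for replicates 1 (circles) and 2 (triangles) and bars at the group means. In the lower panel every shETS1 point lies below both shCON points of its gene, with PHGDH falling from 65.0 to 7.76 CPM on average, while in the upper panel SHMT2 and CHAC1 overlap between groups.

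PHGDH (chr1:120191034-120286841, plus strand) encodes phosphoglycerate dehydrogenase, the first enzyme of serine synthesis. In the shRNA table it stood at 63.6 and 66.3 CPM in shCON replicates 1 and 2 and at 8.06 and 7.45 CPM in shETS1 replicates 1 and 2. The replicates lay close together and the groups were far apart. The mean level was 65.0 ± 1.88 CPM in shCON and 7.76 ± 0.43 CPM in shETS1 (SD, n = 2), 8.38 times lower, with a log2 fold change of -3.07 (SE 0.10). Of the 16481 genes tested, PHGDH had the 58th lowest log2 fold change. After transfection PHGDH stood at 42.6 and 40.6 CPM in siRNA control and at 43.6 and 57.2 CPM in ETS1 siRNA. Both ETS1 siRNA libraries were above both controls, replicate 1 by a narrow margin, and replicate 2 set the difference. After siRNA the log2 fold change was 0.28 (SE 0.15) and did not pass the threshold. Leaving out ETS1 siRNA replicate 2 gave 0.07, and leaving out replicate 1 gave 0.46, which passed the threshold in the higher direction. Its direction was opposite in the 2 knockdowns, and that difference was not tested.

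PSAT1 (chr9:80912041-80945009, plus strand) encodes phosphoserine aminotransferase, the second enzyme of the route. Its level was 120.0 and 124 CPM in shCON and 11.3 and 16.5 CPM in shETS1. Both shETS1 libraries were far below the controls, and they differed from each other more, in proportion, than those of PHGDH. Its log2 fold change was -3.12 (SE 0.12), 8.71 times lower and the 53rd lowest of all genes tested, which put PSAT1 and PHGDH next to each other at the low end of the 10 genes. With siRNA its level was 126 and 110 CPM in siRNA control and 74.5 and 93.6 CPM in ETS1 siRNA. Both treated libraries were lower than both controls. The log2 fold change there was -0.49 (SE 0.16), 1.4 times lower and not past the threshold. PSAT1 did pass it, in the lower direction, without a filter on counts, with DESeq2, and when ETS1 siRNA replicate 2 was left out, its log2 fold change then being -0.67. Without ETS1 siRNA replicate 1 it was -0.33.

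PSPH (chr7:56078744-56119297, minus strand) encodes phosphoserine phosphatase, which completes the route to serine. Its level was 59.0 and 59.2 CPM in shCON and 37.7 and 34.0 CPM in shETS1. The groups were apart, but by far less than those of PHGDH and PSAT1. This amounted to a log2 fold change of -0.72 (SE 0.08), 1.65 times lower, and 13.9% of all genes tested had a lower value. In the short-term experiment PSPH stood at 37.3 and 35.8 CPM in siRNA control and at 33.4 and 34.4 CPM in ETS1 siRNA. The treated libraries were just below the controls. On the log2 scale the change was -0.11 (SE 0.12), smaller than its error. The 3 enzymes of the route thus had unequal changes after shRNA, and after siRNA 1 was higher and 2 were lower, none of them past the threshold.

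SHMT2 (chr12:57623356-57628718, plus strand) encodes the mitochondrial serine hydroxymethyltransferase, which splits serine into glycine and a folate-bound carbon unit. Its level was 145 and 149 CPM in shCON and 93.6 and 84.8 CPM in shETS1. The groups did not overlap. Its log2 fold change was -0.72 (SE 0.08), 1.65 times lower, the same size as that of PSPH. The siRNA libraries had levels of 195 and 190.0 CPM in siRNA control and of 187 and 214 CPM in ETS1 siRNA. The treated libraries lay on either side of the controls. This amounted to a log2 fold change of 0.06 (SE 0.13), and leaving out ETS1 siRNA replicate 2 or 1 gave -0.04 or 0.16.

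MTHFD2 (chr2:74413299-74444692, plus strand) encodes the mitochondrial methylenetetrahydrofolate dehydrogenase that oxidises this carbon unit. Its level was 188 and 205 CPM in shCON and 130.0 and 119 CPM in shETS1. The controls differed from each other by more than those of the serine enzymes, but stayed above both shETS1 libraries. On the log2 scale the change was -0.66 (SE 0.08), 1.58 times lower. The levels with siRNA were 170.0 and 145 CPM in siRNA control and 110.0 and 131 CPM in ETS1 siRNA. Both treated libraries were below both controls, replicate 2 of each group lying nearest to the other group. Its log2 fold change was -0.39 (SE 0.15), not past the threshold, and ranged from -0.26 to -0.53 when single libraries were left out. MTHFD2 passed the threshold when all 8 libraries were fitted together, with a log2 fold change of -0.38. That fit took its spread from both tables, whose own dispersions were 0.0192 (siRNA) and 0.00402 (shRNA). In it 2166 genes passed after siRNA, against 502 with the siRNA libraries alone.

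ASNS (chr7:97480989-97501854, minus strand) encodes asparagine synthetase, which moves an amino group from glutamine to aspartate, and its upstream stretch with the ATF4-C/EBP core is printed above. Its level was 78.1 and 81.2 CPM in shCON and 13.6 and 15.9 CPM in shETS1. The groups were widely separated. This amounted to a log2 fold change of -2.43 (SE 0.09), 5.39 times lower and the 142nd lowest of all genes tested. In the siRNA table ASNS stood at 62.4 and 52.3 CPM in siRNA control and at 38.1 and 49.3 CPM in ETS1 siRNA. Both treated libraries were below both controls, replicate 2 only just. On the log2 scale the change was -0.39 (SE 0.16), 1.31 times lower and not past the threshold, and leaving out ETS1 siRNA replicate 1 or 2 gave -0.21 or -0.60.

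ATF4 (chr22:39915700-39918688, plus strand), the transcription factor itself, had the smallest change of the 10 genes after shRNA. Its level was 209 and 219 CPM in shCON and 193 and 181 CPM in shETS1. The groups did not overlap, but the gap between them was little larger than the gaps between replicates. The mean level was 214 ± 7.39 CPM in shCON and 187 ± 9.02 CPM in shETS1 (SD, n = 2), 1.14 times lower, with a log2 fold change of -0.19 (SE 0.07), the 6106th lowest of all genes tested. ATF4 was no longer past the threshold without shCON replicate 2, where its log2 fold change was -0.16, or without shETS1 replicate 2, where it was -0.15. Short-term, ATF4 stood at 257 and 262 CPM in siRNA control and at 265 and 309 CPM in ETS1 siRNA. Both treated libraries were above both controls, replicate 1 only just. Its log2 fold change was 0.15 (SE 0.13), not past the threshold, and was 0.03 without ETS1 siRNA replicate 2 and 0.26 without replicate 1. Counts of RNA do not measure the translation of ATF4, at which much of its regulation is known to take place.

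CHAC1 (chr15:41245160-41248710, plus strand) encodes a gamma-glutamyl cyclotransferase that degrades glutathione, and it had the lowest level per kilobase of the 10 genes in both shRNA groups. Its counts were 191 and 176 in shCON and 34 and 34 in shETS1, or 7.60 and 6.78 CPM against 1.48 and 1.35 CPM. The groups were well apart even at this depth. This amounted to a log2 fold change of -2.34 (SE 0.19), 5.08 times lower, with the largest error of the 10 genes in this table. Among the siRNA libraries CHAC1 stood at 10.5 and 9.35 CPM in siRNA control and at 8.55 and 11.6 CPM in ETS1 siRNA. The treated libraries lay on either side of the controls. On the log2 scale the change was 0.02 (SE 0.20), and leaving out single treated libraries moved it from -0.22 to 0.23.

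TRIB3 (chr20:343479-378203, plus strand) encodes a pseudokinase that is known to bind ATF4 and to restrain it. Its level was 47.9 and 46.6 CPM in shCON and 10.1 and 9.99 CPM in shETS1. Replicates of each group were nearly equal, and the groups did not overlap. Its log2 fold change was -2.24 (SE 0.10), 4.71 times lower and the 185th lowest of all genes tested. In the siRNA table TRIB3 stood at 69.0 and 63.2 CPM in siRNA control and at 47.2 and 59.6 CPM in ETS1 siRNA. The treated libraries were below the controls and farther from each other than the nearer of them was from a control. This amounted to a log2 fold change of -0.31 (SE 0.14), not past the threshold, which became -0.15 without ETS1 siRNA replicate 1 and -0.49 without replicate 2.

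SLC7A11 (chr4:139085251-139163503, minus strand) encodes the cystine and glutamate exchanger that supplies cysteine for glutathione. Its level was 73.4 and 70.5 CPM in shCON and 21.9 and 26.3 CPM in shETS1. The groups did not overlap. On the log2 scale the change was -1.58 (SE 0.09), 2.98 times lower and the 493rd lowest of all genes tested. In the siRNA table it stood at 88.1 and 50.0 CPM in siRNA control and at 27.4 and 36.6 CPM in ETS1 siRNA. Both treated libraries were lower than both controls, but the controls differed widely, with a mean of 69.0 ± 26.9 CPM against 32.0 ± 6.47 CPM in ETS1 siRNA (SD, n = 2). After siRNA the log2 fold change was -1.11 (SE 0.25), 2.16 times lower and the 137th lowest of 14742 genes tested. Without siRNA control replicate 1 it was -0.64 and no longer past the threshold.

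**Figure D2:**
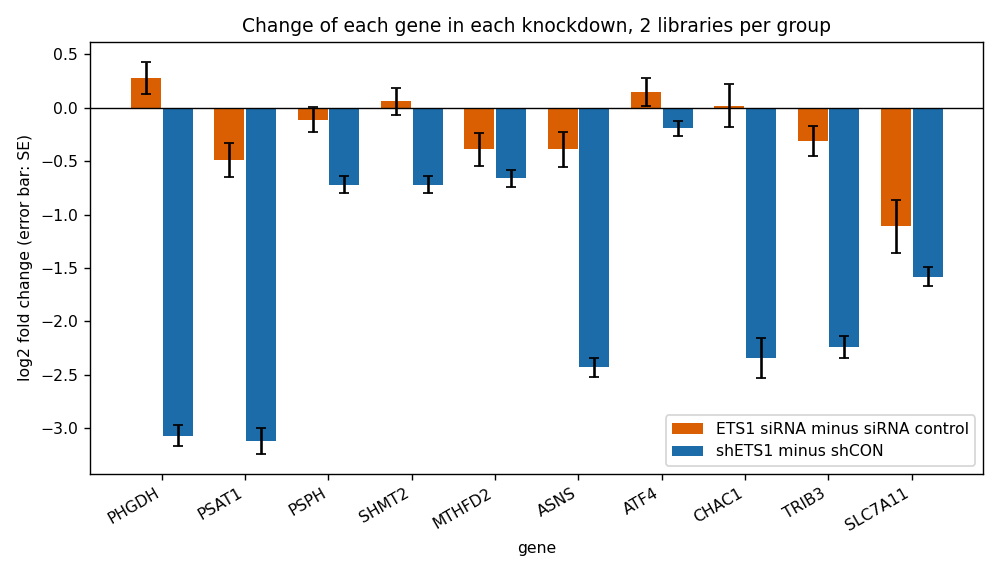
Log2 fold change of each gene in each knockdown against its own control, with bars starting at 0, error bars of 1 SE and 2 libraries per group. The shRNA bars are all below 0, from -0.19 for ATF4 to -3.12 for PSAT1, and of the siRNA bars that of SLC7A11, at -1.11, reaches farthest from 0.

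In the siRNA table nearly all of the 10 genes ordered the replicates of a group the same way. In siRNA control, replicate 1 was above replicate 2 for 9 of the 10 genes, ATF4 being the exception, and over all genes tested for 49.3%. In ETS1 siRNA, replicate 2 was above replicate 1 for 10 of 10, while replicate 1 was above replicate 2 for 49.7% of all genes. The shRNA replicates had a mixed order, with replicate 1 above replicate 2 for 3 of the 10 genes in shCON and for 7 in shETS1. For all genes tested these shares were 47.2% in shCON and 50.1% in shETS1. The 10 genes of a library share that library and its scaling, so that these counts describe the libraries and are not 10 independent observations.

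**Figure D3:**
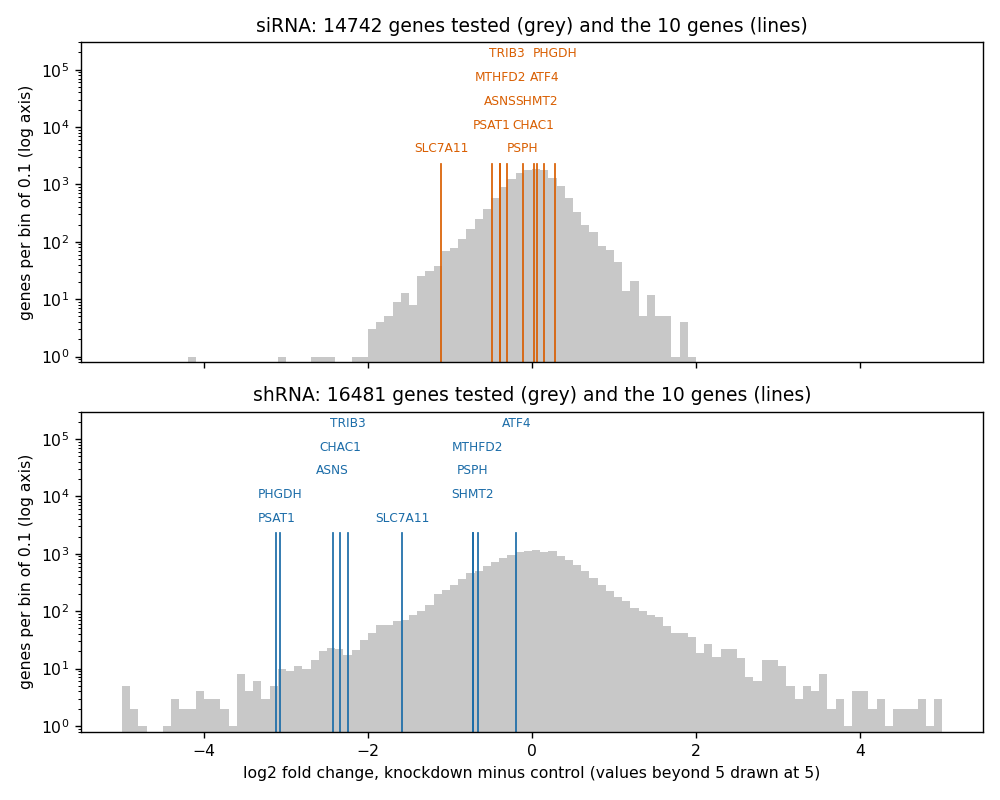
Number of tested genes per bin of log2 fold change, on a log axis, for siRNA (upper panel) and shRNA (lower panel), with a line at the value of each of the 10 genes. After siRNA 9 of the 10 lines stand between -0.49 and 0.28, and after shRNA PSAT1, PHGDH, ASNS, CHAC1 and TRIB3 stand between -3.12 and -2.24, in the lower tail of all genes.

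Levels of different genes were compared as CPM per kilobase of the canonical transcript. All orders given here and for the siRNA groups depend on that length. PHGDH has 1866 bases in the canonical transcript and 9187 over all annotated exons, and MTHFD2 has 4403 and 11443, while PSAT1 has 2206 by both. Which length the counted reads came from was not tested, and an order by exonic length may differ. In shCON the order, from the highest mean level, was ATF4 at 151, SHMT2 at 68.2, PSAT1 at 55.3, MTHFD2 at 44.6, PHGDH at 34.8, ASNS at 33.4, PSPH at 29.9, TRIB3 at 20.1, SLC7A11 at 7.46 and CHAC1 at 4.73. No neighbours in this order overlapped, but PHGDH and ASNS were apart by little more than the SD of each, 1.01 and 0.905. In shETS1 the order was ATF4 at 132, SHMT2 at 41.4, MTHFD2 at 28.3, PSPH at 18.2, PSAT1 at 6.31, ASNS at 6.18, TRIB3 at 4.26, PHGDH at 4.16, SLC7A11 at 2.50 and CHAC1 at 0.931. PSAT1 moved from place 3 to place 5 and PHGDH from place 5 to place 8, while PSPH rose in the order from place 7 to place 4. The libraries of PSAT1 and ASNS overlapped, as did those of TRIB3 and PHGDH, so that the order within these pairs is not settled.

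In siRNA control the levels per kilobase were 183 for ATF4, 89.2 for SHMT2, 53.5 for PSAT1, 35.7 for MTHFD2, 28.1 for TRIB3, 24.0 for ASNS, 22.3 for PHGDH, 18.5 for PSPH, 7.15 for SLC7A11 and 6.54 for CHAC1. ASNS overlapped with PHGDH, and SLC7A11 with CHAC1. In ETS1 siRNA they were 202 for ATF4, 93.0 for SHMT2, 38.1 for PSAT1, 27.4 for MTHFD2, 27.0 for PHGDH, 22.7 for TRIB3, 18.3 for ASNS, 17.2 for PSPH, 6.64 for CHAC1 and 3.32 for SLC7A11. There, neighbours from MTHFD2 down to PSPH overlapped and CHAC1 stood above SLC7A11.

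How reads in shared exons were counted bears on some of these genes, since the use of strand is not stated. In the annotation SHMT2 shared exonic bases with NDUFA4L2, MTHFD2 with SLC4A5 and SLC7A11 with SLC7A11-AS1, all on the opposite strand, and ASNS shared them with an unnamed gene on its own strand. Their reads cannot be fully told apart. The tables also list 20 symbols named as copies of PSAT1, PSPH, MTHFD2, ASNS or ATF4, and the highest count of any of them in a library was 1.

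With scaling by library size only, the median of all genes in the shRNA table was -0.125, and the calls were 3624 higher and 6269 lower, against 4900 higher and 5088 lower with TMM. The 10 genes were then lower by more than that median, from -0.32 for ATF4 to -3.25 for PSAT1. The structural RNA shares also differed between shCON and shETS1. A link with these changes cannot be told apart from the difference between the groups and was not tested.

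The other genes of these pathways were taken from 8 lists without the 10 genes. Of all genes tested, 29.7% were called higher and 30.9% lower after shRNA, and 1.13% and 2.27% after siRNA. The count of each list is to be read beside these shares. After shRNA, 118 of the 167 tested genes of the joined lists passed the threshold, 42 higher and 76 lower (70.7%), with a median log2 fold change of -0.15, beside 60.6% of all genes. After siRNA, 7 of 164 passed, 2 higher and 5 lower (4.27%), with a median of -0.04, beside 3.41% of all genes. Among protein-coding genes with at least 1 TPM, 111 of 153 list genes passed after shRNA, beside 8018 of 11457 genes tested. With that filter 8 of 157 passed after siRNA, beside 793 of 12073. No excess of the lists is read from these shares.

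**Figure D4:**
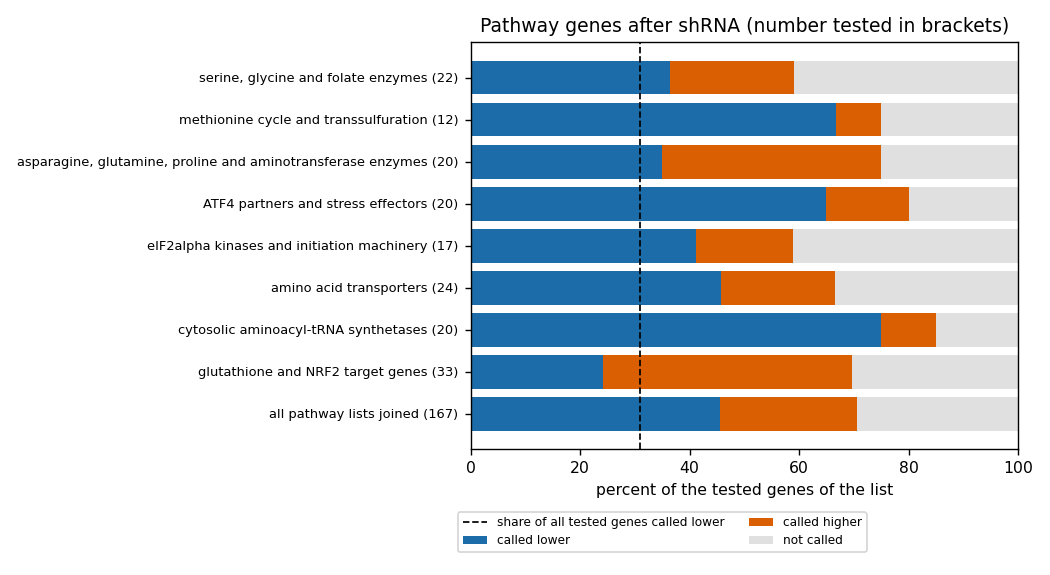
Share of the tested genes of each list called lower, called higher or not called after shRNA, in percent, with the number tested in brackets and a dashed line at the share of all tested genes called lower, 30.9%. The share called lower was 75.0% of the cytosolic aminoacyl-tRNA synthetases and 24.2% of the glutathione and NRF2 target genes.

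Among 22 tested serine, glycine and folate enzymes, 5 (22.7%) were called higher and 8 (36.4%) lower after shRNA, with a median of -0.12. ALDH1L2, the mitochondrial dehydrogenase of formyl-folate, fell by 2.86 on the log2 scale (SE 0.12, adjusted p = 2.84e-12), from a mean of 46.9 to 6.44 CPM, a change near those of PHGDH and PSAT1. Thymidylate synthase, TYMS, fell by 1.62 (SE 0.12, adjusted p = 3.29e-09). The mitochondrial folate carrier SLC25A32 rose by 0.22 (SE 0.07, adjusted p = 0.0168). After siRNA 1 of 22 was called higher and 1 lower, with a median of 0.02, namely the mitochondrial serine carrier SFXN1 at 0.60 (SE 0.12, adjusted p = 0.0638) and its relative SFXN3 at -0.80 (SE 0.14, adjusted p = 0.037).

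Of 12 genes of the methionine cycle and transsulfuration, 1 (8.33%) was called higher and 8 (66.7%) lower after shRNA, with a median of -0.52. Spermidine synthase, SRM, fell by 1.38 (adjusted p = 3.39e-09) and MAT2A, which makes S-adenosylmethionine, by 0.83 (adjusted p = 1.52e-07). AHCY, which hydrolyses S-adenosylhomocysteine, rose by 0.17 (adjusted p = 0.0564). After siRNA none of the 12 was called by edgeR, with a median of -0.01 and 2 genes at an unadjusted p under 0.05. Over all 14742 genes tested, 2721 had such a p.

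The 20 tested enzymes of asparagine, glutamine, proline and aminotransfer moved both ways after shRNA, with 8 called higher, 7 lower and a median of 0.05. GLUL, glutamine synthetase, rose by 2.14 (SE 0.09, adjusted p = 3.11e-12), from a mean of 388 to 1700.0 CPM, and ASS1, argininosuccinate synthase, rose by 1.08 (adjusted p = 3.46e-09). BCAT1, a branched-chain aminotransferase, fell by 2.17 (SE 0.08, adjusted p = 4.28e-13), and GPT2, a mitochondrial alanine aminotransferase, by 1.00 (adjusted p = 2.08e-07). ASNS, chosen with its change of -2.43 known, stood below the lowest gene of this list, and that difference was not tested. After siRNA none of 18 was called by edgeR, with a median of -0.05 and 1 gene at an unadjusted p under 0.05. Over all 14742 genes tested, 2721 had such a p.

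Among 20 partners of ATF4 and effectors of the stress response, 3 (15.0%) were called higher and 13 (65.0%) lower after shRNA. The median was -0.48. VEGFA, the endothelial growth factor, fell by 2.59 (SE 0.08, adjusted p = 9.4e-14), and STC2, a secreted glycoprotein, by 2.08 (SE 0.13, adjusted p = 4.48e-10). KLHL24, an adaptor of a ubiquitin ligase, rose by 1.24 (adjusted p = 9.11e-10), and CEBPD, a C/EBP factor, by 0.94 (adjusted p = 6.12e-08). After siRNA the list had a median of -0.01, and JDP2, a repressor of the AP-1 family, rose by 0.91 (SE 0.19, adjusted p = 0.0638) while VEGFA fell by 0.51 (SE 0.13, adjusted p = 0.0998).

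The next list joins the kinases that phosphorylate eIF2alpha, which stand upstream of ATF4, with genes of the initiation machinery. Of 17 tested genes, 3 (17.6%) were called higher and 7 (41.2%) lower after shRNA, with a median of -0.03. EIF2AK3, the kinase of the endoplasmic reticulum also called PERK, rose by 0.44 (adjusted p = 0.000301), and EIF2S1, which encodes eIF2alpha itself, by 0.24 (adjusted p = 0.012). EIF4EBP1, a repressor of cap-dependent translation, fell by 0.90 (adjusted p = 3.01e-08), and EIF2AK2, the RNA-activated kinase, by 0.76 (adjusted p = 3.03e-06). After siRNA none of 17 was called by edgeR, with a median of -0.06 and 3 genes at an unadjusted p under 0.05. Over all 14742 genes tested, 2721 had such a p.

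Of 24 tested amino acid transporters, 5 (20.8%) were called higher and 11 (45.8%) lower after shRNA, with a median of -0.24. The glycine transporter SLC6A9 fell by 1.80 (adjusted p = 3.23e-09) and the leucine transporter SLC7A5 by 1.05 (adjusted p = 2.35e-08). The neutral amino acid transporters SLC43A2 and SLC38A2 rose by 1.34 (adjusted p = 3.08e-08) and 0.71 (adjusted p = 3.92e-06). After siRNA 2 of 23 were called, both lower, with a median of -0.13, namely the taurine transporter SLC6A6 at -0.71 (adjusted p = 0.0837) and SLC6A15 at -0.54 (adjusted p = 0.0977). SLC7A11, chosen with its change known, was lower than both in the same libraries, at -1.11, and that difference was not tested.

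The cytosolic aminoacyl-tRNA synthetases load amino acids on tRNAs. Of 20 such genes, 2 (10.0%) were called higher and 15 (75.0%) lower after shRNA, with a median of -0.37. AARS, for alanine, fell by 1.43 (adjusted p = 1.16e-10) and YARS, for tyrosine, by 1.30 (adjusted p = 3.05e-10). RARS, for arginine, rose by 0.34 (adjusted p = 0.000883), and DARS, for aspartate, by 0.24 (adjusted p = 0.00824). After siRNA none of 20 was called by edgeR, with a median of -0.09 and 1 gene at an unadjusted p under 0.05. Over all 14742 genes tested, 2721 had such a p.

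SLC7A11 and CHAC1 are also linked to the set of glutathione and NRF2 target genes. Of 33 genes in this list, 15 (45.5%) were called higher and 8 (24.2%) lower after shRNA, with a median of 0.04. The glutaredoxin GLRX and the glutathione reductase GSR rose by 0.95 (adjusted p = 8.38e-06) and 0.90 (adjusted p = 1.28e-08). ABCC1, an exporter of glutathione conjugates, fell by 1.30 (adjusted p = 3.91e-08), and PGD, of the pentose phosphate route, by 0.71 (adjusted p = 6.26e-07). After siRNA 1 of 33 was called, with a median of 0.10, HMOX1, the haem-degrading oxygenase, at -1.05 (SE 0.18, adjusted p = 0.0376).

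All pathway genes named here had groups that did not overlap, which the rule for naming them required. The calls of SLC25A32, AHCY, EIF2S1 and DARS after shRNA were lost with scaling by library size only, where their log2 fold changes were 0.09, 0.04, 0.12 and 0.11, and without shCON replicate 1, where they were 0.16, 0.13, 0.19 and 0.21. AHCY was also lost without shCON replicate 2, without shETS1 replicate 1, with no filter on low counts, with the replicate number as a block and with all 8 libraries fitted together, and SLC25A32 was also lost in that last fit. The 7 calls after siRNA were all lost without siRNA control replicate 1, where the log2 fold changes were 0.57 for SFXN1, -0.74 for SFXN3, 0.70 for JDP2, -0.45 for VEGFA, -0.54 for SLC6A6, -0.40 for SLC6A15 and -1.06 for HMOX1. Those of SFXN1, VEGFA and SLC6A15 were also lost without siRNA control replicate 2 and, together with that of SLC6A6, without ETS1 siRNA replicate 2. TYMS, MAT2A, ALDH1L2, BCAT1, EIF2AK2, EIF2AK3, SLC25A32, SLC6A6, SLC6A9, SLC7A5, AARS, DARS, YARS, VEGFA and JDP2 share exonic bases with a gene on the opposite strand. AHCY and, again, SLC25A32 each share them with an unnamed gene on their own strand. The reads of all these genes may be mixed.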

How the data were processed

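The authors prepared TruSeq RNA libraries from SCC25 cells, sequenced single-end reads, mapped them to GRCh37 and deposited raw read counts per gene symbol, not normalized, in a table for each knockdown. The submitters' processing notes name TopHat2 2.1.1, Bowtie2 2.2.6 and featureCounts 1.5.0. The use of strand and of reads with several matches is not given in the sources used here, so that reads of overlapping genes and of close copies may be mixed.

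ETS1 siRNA was set against siRNA control and shETS1 against shCON, in a separate fit of 4 libraries each, by the two-sided quasi-likelihood test of edgeR 4.0.16 (R 4.3.3), with TMM scaling, filterByExpr and Benjamini-Hochberg adjustment over all genes tested. A gene was called at an adjusted p under 0.1, the threshold the authors used with DESeq2. The SE is the size of the log2 fold change divided by the root of F. CPM was computed with the TMM-scaled library sizes. No replicate pair agreed within sampling noise (chi-square over its degrees of freedom, 6.23 to 23.2). Positions came from GENCODE v44 lifted to GRCh37, and motif windows from RefSeq.

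The genes, lists and naming rule were chosen with earlier results of these data known. The rule named the 10 genes, ETS1 and, in each list and comparison, up to 2 called genes per direction with the largest change, groups that did not overlap and a mean of 5 CPM or more, and 1 gene so named is not reported here. The lists were serine, glycine and folate enzymes, methionine cycle and transsulfuration, asparagine, glutamine, proline and aminotransferase enzymes, ATF4 partners and stress effectors, eIF2alpha kinases and initiation machinery, amino acid transporters, cytosolic aminoacyl-tRNA synthetases, and glutathione and NRF2 target genes. The difference between the knockdowns was not fitted.

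The fit was tested on simulated data in which 200 genes carried a log2 change of 1. It recovered 68.2% of them with the siRNA libraries (14742 genes) and 80.8% with the shRNA libraries (16481 genes), with 11.9% false calls in both. The simulation changed a far smaller share of genes than the 60.6% called after shRNA. Its figures therefore do not describe the shRNA fit at that share. Alternatives were DESeq2 1.42.0, DESeq2 size factors, library size only, no filter, at least 10 counts in every library, protein-coding genes with at least 1 TPM, a joint fit of the 8 libraries, the replicate number as a block, a stricter adjusted p of 0.05 and leaving out each library. A crossed block was added after seeing the data.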

Additional observations from a re-analysis of the deposited data

Results flagged for a closer look

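Among the genes named above, 9 had changes of opposite sign in the 2 knockdowns, with both treated libraries above both controls in one table and below both controls in the other. The difference between the knockdowns was not tested for any of them. Over all genes tested, groups did not overlap for 25.7% in the higher and 26.2% in the lower direction after siRNA. After shRNA these shares were 38.1% and 38.6%. The share of all genes with opposite directions was not counted, so nothing is read from the number 9. Of the 10 chosen genes, PHGDH had a log2 fold change of 0.28 after siRNA and of -3.07 after shRNA, and ATF4 had 0.15 and -0.19. Neither passed the threshold after siRNA with all libraries, and PHGDH passed it in the higher direction without ETS1 siRNA replicate 1, at 0.46.

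Of the pathway genes, AARS had 0.09 after siRNA and -1.43 after shRNA, PGD 0.10 and -0.71, SFXN1 0.60 and -0.52, and SLC6A9 0.39 and -1.80. In the other direction DARS had -0.22 and 0.24, SLC38A2 -0.29 and 0.71, and SLC43A2 -0.25 and 1.34. SFXN1 alone of the 9 genes passed the threshold in both tables.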

How the results depend on the processing

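The shRNA counts stayed within 1.5 times in all 14 alternatives, at 7608 to 10923 genes (9988 as reported), 102 to 128 pathway genes (118) and 9 to 10 of the 10 chosen genes, ATF4 being lost without shCON replicate 2, without shETS1 replicate 2 and in the fit of all 8 libraries. After siRNA the counts moved for all genes (502 as reported), pathway genes (7) and the chosen genes (1). They were 1466, 18 and 2 with no filter, 777, 12 and 2 with DESeq2, 2166, 26 and 2 with all 8 libraries in one fit, 190, 2 and 0 at an adjusted p under 0.05, and 793 genes among protein-coding genes with at least 1 TPM. Leaving out single libraries gave 72 to 1478 genes, 0 to 13 pathway genes and 0 to 2 of the chosen genes, the lowest without siRNA control replicate 1 and the highest count of genes without ETS1 siRNA replicate 1. The cause was not tested. With the replicate number as a block the counts were 97, 0 and 0, and SLC7A11 was lost. The labels tie the number to no shared batch, and the deviations of same-numbered libraries had a correlation of -0.566 in the siRNA and -0.13 in the shRNA table. A crossed pairing gave 3238 genes, 34 pathway genes and 5 chosen genes. The fit of all 8 libraries took its spread from both tables. PSAT1 was the gene gained with no filter, with DESeq2 and without ETS1 siRNA replicate 2, MTHFD2 in the fit of all 8 libraries and PHGDH, higher, without ETS1 siRNA replicate 1. The signs of 10 of the 10 genes after shRNA and 8 of 10 after siRNA were kept in all 13 refits, SHMT2 and CHAC1 after siRNA being the exceptions. The lowest count of a chosen gene in a library was 34.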
